A study of Mus musculus with 15 samples.

Results

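The prostaglandin and leukotriene synthesis genes comprised 10 genes of the mouse, namely *Pla2g4a*, *Ptgs1*, *Ptgs2*, *Ptges*, *Hpgds*, *Tbxas1*, *Alox5*, *Alox5ap*, *Ltc4s* and *Ptger4*. They were chosen by name, with earlier results of these data known. Each of the 10 was found among the 78317 gene identifiers of the count table. Their levels were measured by RNA-seq in MH-S cells, a virus-transformed line of mouse alveolar macrophages, in 5 groups of 3 wells each. The M0 group received medium, the M1 group LPS at 1 µg/mL with IFN-γ at 20 ng/mL, and the M2 group IL-4 at 20 ng/mL. The other groups received calcium phosphate (CaP) or silica (SiO2) microrods at 0.1 mg/mL, rod-shaped particles assembled from nanoparticles with alginate and coated with protamine and carboxymethyl chitosan. The paper states that equal mass concentrations of both rod types hold different numbers of rods. Rod material and rod number thus cannot be told apart in these groups. All exposures lasted 24 h. The rods came from 3 independently made batches and every well held cells of the same passage, so replicates span wells (and, for the rods, particle batches) and not passages or lines, and p-values measure only that spread.

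Eicosanoids are lipid mediators made from arachidonic acid. Cytosolic phospholipase A2 (*Pla2g4a*) frees the acid from membranes, and the cyclooxygenases COX-1 (*Ptgs1*, held to be constitutive) and COX-2 (*Ptgs2*, held to be inducible) turn it into prostaglandin H2. Terminal synthases then make PGE2 (*Ptges*), PGD2 (*Hpgds*) or thromboxane A2 (*Tbxas1*). In the other branch, 5-lipoxygenase (*Alox5*), helped by its activating protein FLAP (*Alox5ap*), makes leukotriene A4, from which leukotriene C4 synthase (*Ltc4s*) forms the first cysteinyl leukotriene. *Ptger4* encodes EP4, a receptor for PGE2 that raises cAMP. Macrophages of the lung are a known source of both classes of mediator, and transcript levels of these genes say nothing directly of the amounts of mediator released.

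The stretches directly before the gene start are printed for 5 genes on which the results turn, because *Ptgs2* and *Ptges* rose in M1, *Ptgs1* and *Ltc4s* rose in M2, and the rod-exposed libraries of *Hpgds* lay apart from M0, though without a call. Each is the 250 bases before the start annotated by RefSeq on GRCm38.p6, read on the strand of the gene. A promoter sequence was matched for 9 of the 10 genes, and *Alox5ap* was not among them.
*Ptgs2* (chr1:150099781-150100030, plus strand): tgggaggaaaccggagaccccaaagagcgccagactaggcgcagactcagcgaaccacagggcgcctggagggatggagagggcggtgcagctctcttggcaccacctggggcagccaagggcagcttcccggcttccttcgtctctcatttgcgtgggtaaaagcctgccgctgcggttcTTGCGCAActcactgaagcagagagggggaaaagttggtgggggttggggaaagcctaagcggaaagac
*Ptges* (chr2:30903298-30903547, minus strand): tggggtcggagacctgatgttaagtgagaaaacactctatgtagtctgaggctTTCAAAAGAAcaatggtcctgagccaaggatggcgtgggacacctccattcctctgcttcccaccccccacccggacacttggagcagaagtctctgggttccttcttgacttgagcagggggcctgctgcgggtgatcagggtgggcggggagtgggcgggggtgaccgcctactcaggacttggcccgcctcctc
*Ptgs1* (chr2:36230176-36230425, plus strand): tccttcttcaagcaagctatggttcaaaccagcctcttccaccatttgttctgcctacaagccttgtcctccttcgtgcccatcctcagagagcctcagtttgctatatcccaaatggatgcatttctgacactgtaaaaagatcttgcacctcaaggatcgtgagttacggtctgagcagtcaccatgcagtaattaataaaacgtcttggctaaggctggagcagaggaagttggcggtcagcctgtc
*Ltc4s* (chr11:50238533-50238782, minus strand): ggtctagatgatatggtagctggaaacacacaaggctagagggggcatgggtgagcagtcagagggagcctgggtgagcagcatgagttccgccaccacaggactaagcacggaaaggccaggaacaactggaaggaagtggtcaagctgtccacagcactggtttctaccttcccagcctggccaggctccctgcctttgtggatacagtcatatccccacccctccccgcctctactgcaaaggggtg
*Hpgds* (chr6:65144731-65144980, minus strand): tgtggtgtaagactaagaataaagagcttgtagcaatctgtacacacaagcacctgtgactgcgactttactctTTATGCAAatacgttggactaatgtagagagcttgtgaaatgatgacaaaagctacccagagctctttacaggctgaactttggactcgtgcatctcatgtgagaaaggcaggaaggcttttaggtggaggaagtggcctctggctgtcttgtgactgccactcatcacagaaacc

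Capitals mark matches, on either strand, to motifs searched in the same window, and a match is a description of letters, not of a bound site. With N for any base, the C/EBP core TTGCNNAA was found in *Ptgs2*, from 69 to 62 bases before the start, and on the reverse strand in *Hpgds*, from 176 to 169 bases before it. This motif was present in 9.56% of 32851 promoters. The STAT6 site (5.85% of promoters), which is TTC and GAA with any 4 bases between them, was found in *Ptges*, and the *Ptgs1* and *Ltc4s* windows held no match to it. No match to the κB consensus (7.25%), the GAS site TTCNNNGAA (7.02%), the AP-1 site TGANTCA (6.75%) or the TATA box TATAAA (12.4%) was found in these 5 windows. Of the windows not printed, that of *Tbxas1* held matches to the STAT6 site, the AP-1 site and the TATA box, and a *Pla2g4a* window held a TATA box match. The *Ptgs2* window had 61.6% G and C and 13 CpG pairs, and that of *Hpgds* 45.2% and 3, against medians of 52.4% and 6 over the promoters.

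The libraries held between 8459643 and 68750050 counts, so that 1 count corresponded to 0.0143 to 0.132 CPM. All 10 genes passed the filter on low counts, and in 0 groups did a gene stay at 3 counts or fewer in all 3 libraries. *Ptgs2* passed through its M1 libraries (39.0 to 42.9 CPM), as too few libraries outside M1 (at most 0.756 CPM) reached the filter's level. Its calls in M1 are thus not independent of the filter, and the shares of called genes in M1 include it. Levels are given in CPM, the counts scaled to the TMM-adjusted library size. Fitted log2 fold changes (log2FC, with SE for the standard error) weight deep libraries more and can differ from the ratio of mean CPM. A gene was called where edgeR's adjusted p-value was below 0.05 and the absolute log2FC above 0.5, and 16654 genes were tested. As to cell identity, 11 macrophage markers summed to 2560 to 3510 CPM in M0 and to 1370 to 2100 CPM in M2, with the other groups between 2610 and 3320 CPM. Among them, *Cd68* had 677 to 1320 CPM over all libraries and *Adgre1* 27.4 to 322 CPM, while *Lyz2* had 322 to 438 CPM in M2 and 1420 to 2100 CPM in M0, and *Mertk* had at most 0.501 CPM. The part of this difference in the M2 results was not tested. The alveolar macrophage markers *Siglecf* (at most 0.478 CPM) and *Ear2* (no count in any library) were near or at 0, and *Marco* reached at most 2.82 CPM, in M1. The summed level of 8 mast cell and basophil markers was at most 0.172 CPM in any library, that of 6 epithelial markers at most 0.205 CPM and that of 4 fibroblast markers at most 0.172 CPM. The 5 lymphocyte markers summed to at most 0.602 CPM and the 6 neutrophil markers to at most 1.78 CPM, the latter in M1. Of 4 platelet markers, *Pf4* had 118 to 239 CPM, a gene macrophages also express, and the other markers of that list had at most 13 counts in any library.

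**Figure D1:**
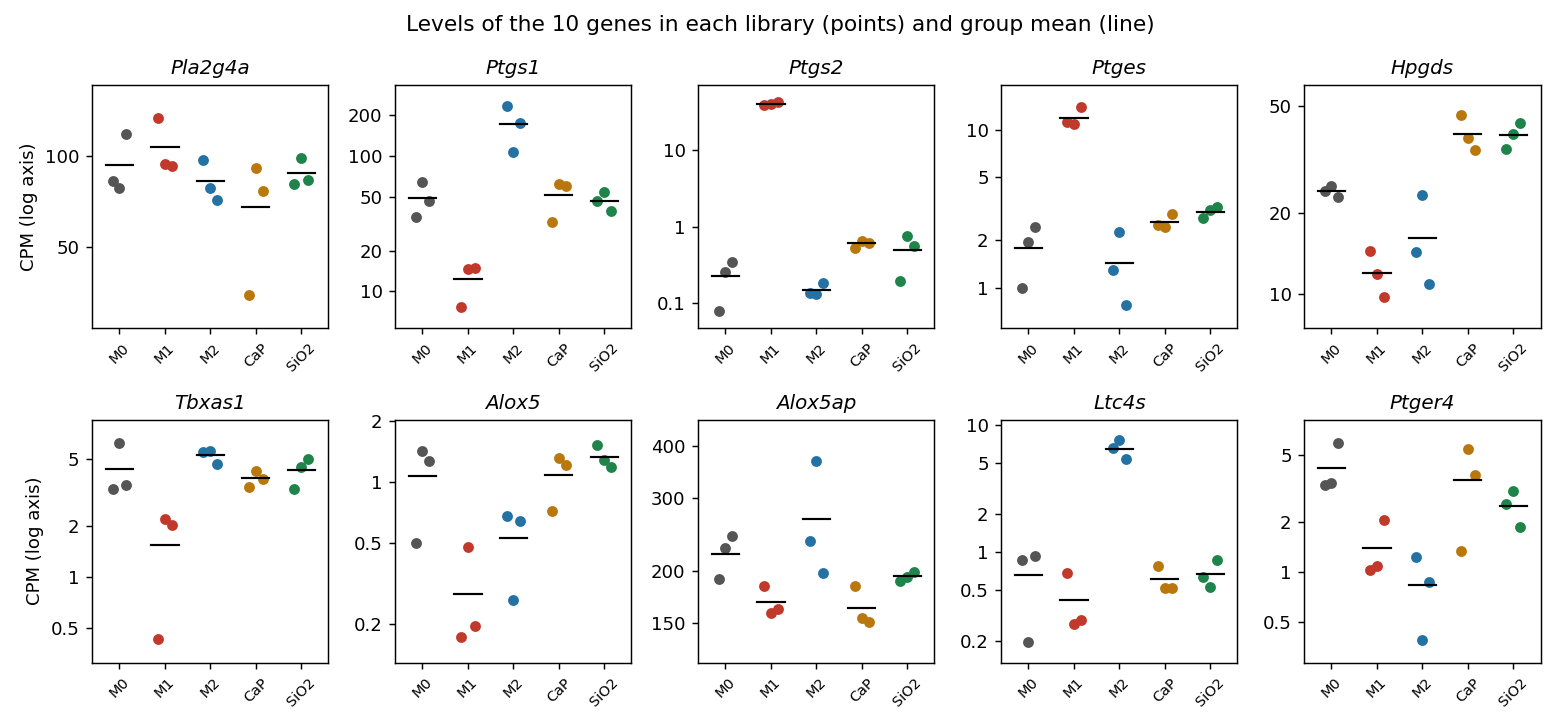
Level of each of the 10 genes in CPM on a log axis, with 1 point per library (3 per group) and a line at the group mean. *Ptgs2* and *Ptges* stand highest in M1, *Ptgs1* and *Ltc4s* in M2, and *Hpgds* lies between 34.2 and 46.2 CPM in the rod-exposed libraries against 23.0 to 25.3 CPM in M0.

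In M1, the cyclooxygenase and terminal synthase genes parted, with *Ptgs2* and *Ptges* higher and *Ptgs1*, *Hpgds* and *Tbxas1* lower than in M0. Thus 5 of the 10 genes were called, 2 higher and 3 lower, where over all genes tested 14.1% were called, 9.7% higher and 4.35% lower. At an unadjusted p below 0.05 were 7 of the 10, and 27.7% of all genes tested. The median log2FC of the 10 genes was -0.86, against -0.01 over all genes tested. The M1 and M0 libraries did not overlap for 8 of the 10 genes (2 higher, 6 lower in M1), a separation seen in 32.2% of all genes tested (20.2% higher, 12% lower). In bulk RNA, fewer cells with a transcript and less of it per cell cannot be told apart.

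In M2, the called genes were *Ptgs1* and *Ltc4s*, which were higher than in M0, and *Ptger4*, which was lower. These 3 of 10 stand beside 4.13% of all genes tested (2% higher and 2.13% lower). The libraries of M2 and M0 did not overlap for the same number of genes, 3 of 10, against 15.2% of all genes tested (7.03% higher, 8.2% lower). The median log2FC of the 10 genes was -0.07, and that over all genes 0.07. Between M1 and M2, 6 of the 10 genes were called, 2 higher (*Ptgs2*, *Ptges*) and 4 lower in M1 (*Ptgs1*, *Alox5ap*, *Ltc4s*, *Tbxas1*), where 16.1% of all genes tested were called, 10.6% higher and 5.47% lower. The libraries of these 6 genes did not overlap, as in 29.4% of all genes tested (18.2% higher, 11.2% lower). The median log2FC of the 10 genes was -0.53 there, against -0.04 over all genes.

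**Figure D2:**
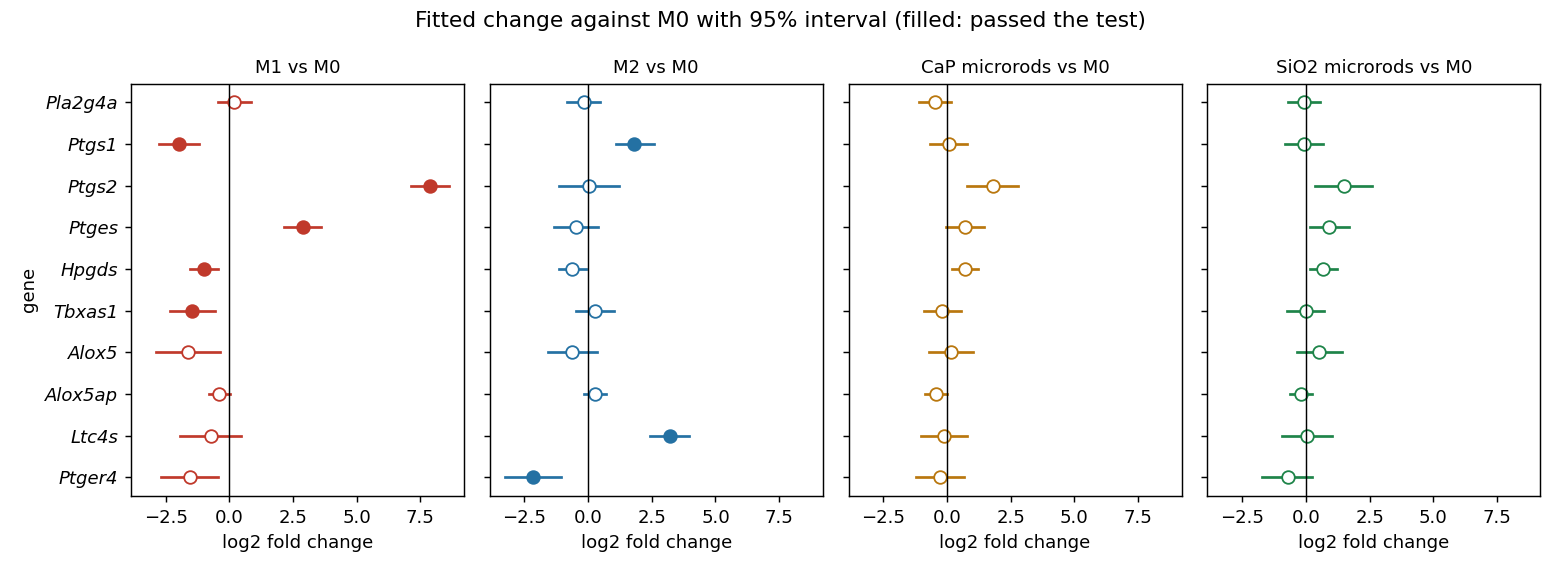
Fitted log2FC of each gene against M0 (points) with its 95% interval (lines) in 4 comparisons, which share the M0 libraries. Filled points passed the test: 5 genes in M1, 3 in M2 and 0 with either microrod type.

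The gene of the release step was called in no comparison. *Pla2g4a*, the cytosolic phospholipase, had 82.9, 78.1 and 118 CPM in M0 and 134, 93.9 and 92.9 CPM in M1. In M2 it had 97.4, 78.4 and 71.4 CPM. These 3 groups overlapped. With CaP microrods the values were 34.6, 91.5 and 76.6 CPM, so that replicate 1 was the lowest of the 15 libraries, and with SiO2 microrods they were 81.1, 98.9 and 83.0 CPM. It was called in 0 of the 6 comparisons by edgeR or DESeq2, with 0 at an unadjusted p below 0.05. The log2FC against M0 lay between -0.46 (95% interval -1.10 to 0.17) with CaP and 0.20 (-0.44 to 0.84) in M1.

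The 2 cyclooxygenase genes moved in opposite directions in M1. *Ptgs2* (COX-2) had 39.0, 39.4 and 42.9 CPM in M1, from 454, 577 and 441 counts. In M0 it had 0.079, 0.260 and 0.347 CPM, from 3, 4 and 3 counts. Each M1 library was thus far above each M0 library, and M0 was close to the limit of detection. The log2FC was 7.87 (SE 0.35, 95% interval 7.12 to 8.62, adjusted p = 4.34e-10 by edgeR). Its size depended on M0 replicate 1, with 3 counts in the deepest M0 library, and without it the log2FC was 7.06 (adjusted p = 1.6e-07). *Ptgs1* (COX-1) had 7.65, 14.6 and 14.9 CPM in M1 against 35.6, 64.7 and 46.6 CPM in M0. The groups did not overlap, and the log2FC was -1.98 (SE 0.36, adjusted p = 0.00223 by edgeR). *Ptgs1* reads overlap an antisense gene model over 148 exon bases, which had 53 counts in all libraries together against 27316 for *Ptgs1*.

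In M2, *Ptgs1* went the other way. It had 236, 107 and 175 CPM, above the highest M0 library (64.7 CPM) in each case, a log2FC of 1.82 (SE 0.35, adjusted p = 0.00829 by edgeR). This call was lost without M0 replicate 1 (log2FC 1.61, adjusted p = 0.0573) and in a fit of the 6 compared libraries alone (1.81, adjusted p = 0.103). Between the polarized groups, *Ptgs1* was lower in M1 than in M2 (log2FC -3.80, SE 0.38, adjusted p = 9.43e-06), and *Ptgs2* was higher by 7.84 (SE 0.35, adjusted p = 2.14e-10). *Ptgs2* in M2 was 0.136, 0.132 and 0.186 CPM, within the range of M0, and no direction could be given, since the fitted value was 0.03 and fell below 0 in 5 of the alternatives, 2 of which left out a library.

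The level per kb of exon puts both cyclooxygenases on 1 scale. With all annotated exons as length, *Ptgs1* had in M0 a mean level of 12.6 ± 3.79 CPM per kb (SD, n = 3) and *Ptgs2* 0.05 ± 0.0299. In M1 the order was turned, with 3.19 ± 1.06 CPM per kb for *Ptgs1* and 8.83 ± 0.458 for *Ptgs2*. Expressed as a share of both genes' counts per kb within a library, a measure that needs no scaling between libraries, *Ptgs2* made up 81.2%, 69.6% and 71.0% in the M1 libraries. It made up 0.188% to 0.629% in M0, 0.0491% to 0.104% in M2, 0.871% to 1.37% with CaP and 0.356% to 1.19% with SiO2 microrods. In each of the 12 libraries outside M1, *Ptgs1* thus accounted for over 98% of the cyclooxygenase signal per kb.

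Of the terminal synthases, *Ptges* (PGE2) rose and *Hpgds* (PGD2) and *Tbxas1* (thromboxane A2) fell in M1. *Ptges* had 11.1, 10.9 and 13.8 CPM in M1 against 1.00, 1.95 and 2.43 CPM in M0, with no overlap. The log2FC was 2.89 (SE 0.34, adjusted p = 6.09e-05 by edgeR). *Hpgds* had 14.5, 11.9 and 9.72 CPM in M1 against 24.1, 25.3 and 23.0 CPM in M0. Its groups did not overlap either, with a log2FC of -1 (SE 0.25, adjusted p = 0.0163). The call was lost without M1 replicate 2 (adjusted p = 0.0611) or M1 replicate 3 (0.0776). *Tbxas1* had 0.430, 2.19 and 2.04 CPM in M1 and 3.29, 6.18 and 3.47 CPM in M0. M1 replicate 1 stood lowest, from 5 counts, and the log2FC was -1.45 (SE 0.41, adjusted p = 0.0294). That call was lost without M0 replicate 2 (0.111), M1 replicate 1 (0.0733) or M1 replicate 3 (0.0514).

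In M2 none of these 3 synthases was called by edgeR or DESeq2, with 1 of them, *Hpgds*, at an unadjusted p below 0.05. *Hpgds* had 14.4, 23.3 and 10.9 CPM there (log2FC -0.62, adjusted p = 0.210 by edgeR), and without M2 replicate 2 it was called lower (-0.94, adjusted p = 0.0137). *Ptges* had 1.30, 2.24 and 0.773 CPM and *Tbxas1* 5.46, 5.53 and 4.67 CPM in M2, both overlapping M0. M1 and M2 differed in *Ptges*, which was higher in M1 by 3.36 on the log2 scale (SE 0.35, adjusted p = 1.55e-05), and in *Tbxas1*, which fell by 1.71 (SE 0.40, adjusted p = 0.00978). Over the counts per kb of these 3 genes within a library, *Hpgds* made up 80.4 ± 4.83% in M0 (SD, n = 3), 72.3 ± 2.81% in M2 and 37.0 ± 7.68% in M1. *Ptges* made up 59.7 ± 6.36% in M1 and 9.67 ± 3.83% in M0. Other prostanoid synthase genes were left out of this share, and some had higher levels. In M0, *Ptges3* had a mean of 349, *Akr1b3* 15.9 and *Cbr1* 15.4 CPM per kb, against 3.76 for *Hpgds*. *Ptges2* had 1.46 CPM per kb, above *Ptges* (0.457) and below *Hpgds*, while *Ptgds*, *Ptgis* and *Prxl2b* had at most 0.0338. Among the 3 genes, *Hpgds* had the largest share in each of the 12 libraries outside M1, also with the longest transcript as length. In M1 the order of *Ptges* and *Hpgds* turned on that length. With all exons *Ptges* was above *Hpgds* in each M1 library, and with the longest transcript *Hpgds* was above *Ptges* in 2 of the 3 (54.4% against 44.3% in replicate 1 and 46.8% against 45.9% in replicate 2), with *Ptges* at 56.2% and *Hpgds* at 37.1% in replicate 3.

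**Figure D3:**
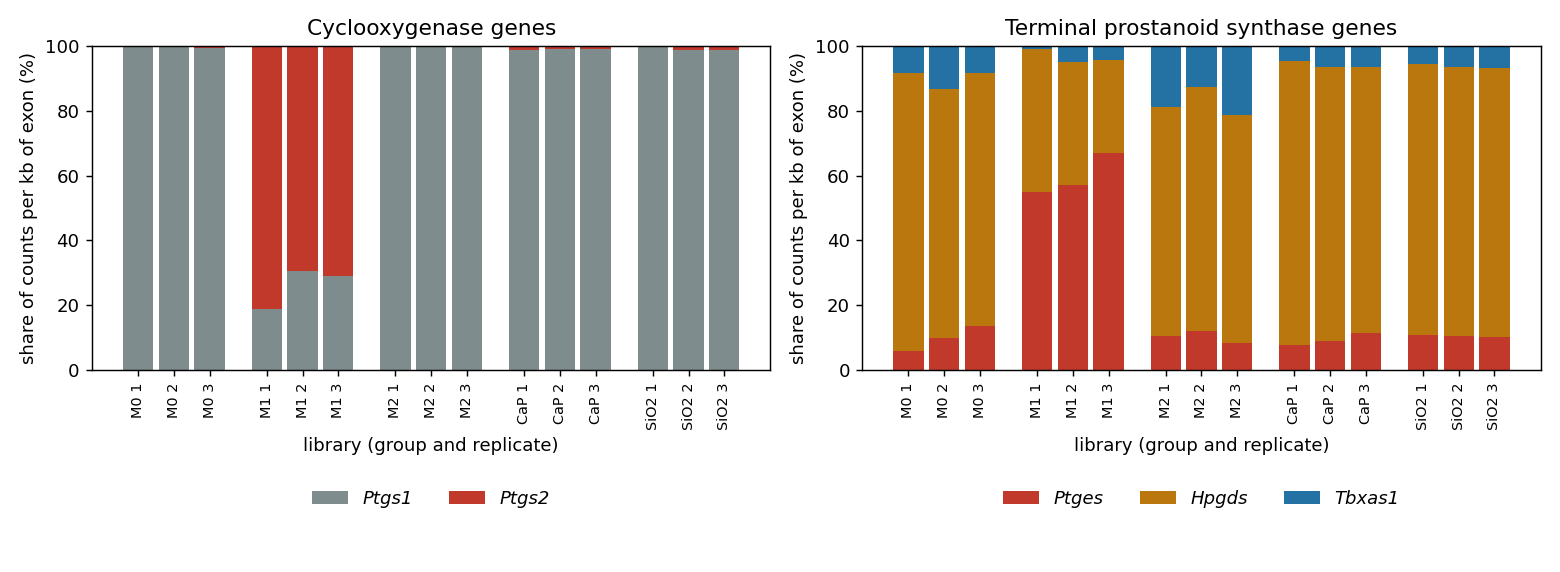
Share of each gene in the counts per kb, with all annotated exons as length and 1 bar per library. The cyclooxygenases are on the left. On the right are *Ptges*, *Hpgds* and *Tbxas1* alone, without the other prostanoid synthase genes. *Ptgs2* takes 69.6% to 81.2% of the cyclooxygenase bar in M1 and at most 1.37% elsewhere, and *Ptges* takes 55.0% to 66.9% of the synthase bar in M1.

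In the leukotriene branch, the 5-lipoxygenase gene itself was barely detected while its partner FLAP was abundant. *Alox5* had at most 49 counts in any library and a mean of 0.260 ± 0.121 CPM per kb (SD, n = 3) in M0, where *Alox5ap* had 155 ± 18.5. *Alox5* had 0.5, 1.43 and 1.27 CPM in M0 and 0.172, 0.479 and 0.194 CPM in M1, from 2, 7 and 2 counts. The M1 libraries were lower without overlap but the gene was not called (log2FC -1.62, 95% interval -2.89 to -0.35, adjusted p = 0.0861 with edgeR, 0.0542 with DESeq2). It was called without M0 replicate 1 (-2.19, adjusted p = 0.0167) and with the legacy quasi-likelihood (-1.78, adjusted p = 0.0461). In M2 it had 0.682, 0.263 and 0.644 CPM, which overlapped M0, and at this depth no difference was detectable.

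*Alox5ap* had 191, 227 and 242 CPM in M0, 184, 158 and 162 CPM in M1 and 236, 368 and 198 CPM in M2. It was not called against M0 in M1 (log2FC -0.39, adjusted p = 0.222) or M2 (0.28, adjusted p = 0.530). Between M1 and M2 it was called lower in M1 (-0.67, SE 0.20, adjusted p = 0.0346 by edgeR), and the call was lost without any of the 3 M1 libraries (adjusted p from 0.0587 to 0.114). Without M2 replicate 2, the highest library, the log2FC was -0.47, under the limit for a call.

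*Ltc4s*, the leukotriene C4 synthase, rose in M2. It had 6.55, 7.63 and 5.37 CPM there, from 96, 58 and 375 counts, against 0.869, 0.195 and 0.927 CPM in M0, from 33, 3 and 8 counts. Every M2 library was above every library of the other groups, the highest of which was M0 replicate 3. The log2FC against M0 was 3.20 (SE 0.36, 95% interval 2.43 to 3.98, adjusted p = 1.47e-04 by edgeR). The call held with each library left out. An antisense gene model that shares 268 exon bases with *Ltc4s* had 10 counts in all libraries together, against 697 for *Ltc4s*. In M1, *Ltc4s* had 0.688, 0.273 and 0.292 CPM, overlapping M0, and M1 was lower than M2 (log2FC -3.93, SE 0.43, adjusted p = 1.99e-05). Mast cells also use *Ltc4s* and *Hpgds*, and the summed level of the 8 mast cell and basophil markers was at most 0.0143 CPM in the M2 libraries.

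*Ptger4*, the EP4 receptor, was called lower in M2. It had 3.32, 3.38 and 5.91 CPM in M0 and 1.23, 0.395 and 0.873 CPM in M2, a log2FC of -2.16 (SE 0.52, adjusted p = 0.0316 by edgeR). The groups did not overlap, but the M2 counts were 18, 3 and 61, and the call was lost without M0 replicate 1 (adjusted p = 0.0682), M0 replicate 3 (0.0903), M2 replicate 1 (0.0611) or M2 replicate 3 (0.166). In M1 it had 1.03, 1.09 and 2.04 CPM (log2FC -1.56, adjusted p = 0.0647 with edgeR, 0.0226 with DESeq2), and it was called there in 5 further alternatives (adjusted p from 0.00347 to 0.0479). *Ptger4* shares 82 exon bases with *Ttc33* on the opposite strand, which had 12320 counts in all against 800 for *Ptger4*, and the library protocol does not mark strand, so a part of its reads could belong to either gene.

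With CaP microrods, 0 of the 10 genes were called against M0 by edgeR or DESeq2. Of all genes tested, edgeR called 0.654% (0.426% higher, 0.228% lower) and DESeq2 called 2.76%. At an unadjusted p below 0.05 (edgeR) were 3 of the 10, and 15.8% of all genes tested. With SiO2 microrods 0 of the 10 were likewise called by either tool. There edgeR called 0.264% of all genes tested (0.222% higher, 0.042% lower) and DESeq2 called 0.654%. At an unadjusted p below 0.05 were again 3 of the 10, and 8.15% of all genes tested. The median log2FC of the 10 genes were -0.02 and 0.01, against 0.06 and -0.02 over all genes. The CaP and M0 libraries did not overlap for 4 of the 10 genes (3 higher and 1 lower, against 17.4% of all genes tested, 7.33% higher and 10.1% lower). For the SiO2 and M0 libraries this held for 3 genes (2 higher and 1 lower, against 18%, 9.1% higher and 8.87% lower). Both comparisons use the same M0 libraries.

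*Hpgds*, the PGD2 synthase gene, had 46.2, 38.1 and 34.2 CPM with CaP and 34.5, 39.5 and 43.4 CPM with SiO2 microrods, against 24.1, 25.3 and 23.0 CPM in M0. Each of the 6 rod-exposed libraries was above each M0 library. Taken singly, the CaP libraries lay above M0 without overlap in 7.33% of all genes tested and the SiO2 libraries in 9.1%. The log2FC were 0.71 with CaP (95% interval 0.19 to 1.23, adjusted p = 0.190 with edgeR, 0.133 with DESeq2) and 0.69 with SiO2 (0.18 to 1.21, adjusted p = 0.417 and 0.329). Neither was called under any of the alternatives or with any library left out. With a library left out, the lowest adjusted p by edgeR was 0.0574 for CaP and 0.162 for SiO2. The difference between the rods was 0.02 on the log2 scale, with a 95% interval from -0.49 to 0.52. The mast cell and basophil markers summed to at most 0.147 CPM in the rod-exposed libraries.

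*Ptgs2* was low with both rods, at 0.533, 0.657 and 0.623 CPM with CaP (26, 10 and 25 counts) and 0.196, 0.756 and 0.555 CPM with SiO2 (4, 10 and 14 counts). The CaP libraries lay above M0 without overlap, and SiO2 replicate 1 lay within M0. The log2FC were 1.79 with CaP (95% interval 0.78 to 2.79, adjusted p = 0.0967 with edgeR, 0.0518 with DESeq2) and 1.49 with SiO2 (0.37 to 2.60, adjusted p = 0.415). These rest on 10 counts in the M0 group. Without M0 replicate 1 they were 0.98 (adjusted p = 0.618) and 0.69 (adjusted p = 0.995), while the mean level with CaP, 0.605 ± 0.0641 CPM (SD, n = 3), compares with 40.4 ± 2.10 CPM in M1. *Ptges* had 2.48, 2.43 and 2.94 CPM with CaP and 2.74, 3.10 and 3.25 CPM with SiO2 microrods. The highest M0 library (2.43 CPM) thus reached the lowest CaP library to 3 digits, and the log2FC were 0.71 (-0.03 to 1.46, adjusted p = 0.338) and 0.91 (0.15 to 1.68, adjusted p = 0.5).

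The remaining genes gave no call with the rods. *Ptgs1* had 32.5 to 61.9 CPM with CaP and 39.1 to 54.5 CPM with SiO2, both within the range of M0 from 35.6 to 64.7 CPM but for the lowest CaP library. *Alox5ap* had 151 to 184 CPM with CaP, below every M0 library (log2FC -0.44, 95% interval -0.86 to -0.01, adjusted p = 0.306), and 189 to 199 CPM with SiO2. *Ltc4s* (0.523 to 0.872 CPM over both rod groups), *Tbxas1* (3.33 to 4.99 CPM) and *Alox5* (0.718 to 1.52 CPM) overlapped M0 with both rods. *Ptger4* had 1.33, 5.46 and 3.81 CPM with CaP, and 2.54, 3.03 and 1.86 CPM with SiO2, below every M0 library (log2FC -0.72, 95% interval -1.71 to 0.26, adjusted p = 0.749). The rods did not differ detectably from each other in any of the 10 genes, with 0 called by edgeR or DESeq2 and 0 at an unadjusted p below 0.05. Of all genes tested, edgeR called 0.018% between the rods and DESeq2 called 0.0846%. The CaP libraries lay below the SiO2 libraries without overlap for 1 gene, *Alox5ap*, against 8.1% of all genes tested in either direction (3.43% higher, 4.67% lower). The widest 95% interval of that difference was for *Ptger4*, from -0.50 to 1.42.

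By group mean, the order of levels was M1, CaP, SiO2, M0 and M2 for *Ptgs2*, in which M1 alone lay apart from its neighbour. For *Ptgs1* it was M2, CaP, M0, SiO2 and M1, with M2 and M1 apart from their neighbours and the middle 3 groups overlapping. For *Ptges* M1 lay apart above SiO2, CaP, M0 and M2, of which SiO2 overlapped CaP and M0 overlapped M2, while CaP and M0 touched without overlap. For *Hpgds* the order was CaP, SiO2, M0, M2 and M1. There the rods overlapped each other and lay apart from M0, M2 reached into M0 with its highest library, and M2 and M1 overlapped. For *Ltc4s* M2 lay apart above the other 4 groups, whose neighbours overlapped. For *Tbxas1* M1 lay apart at the low end below M2, M0, SiO2 and CaP, whose neighbours in this order overlapped. The neighbouring groups of *Pla2g4a* (M1, M0, SiO2, M2, CaP), *Alox5* (SiO2, CaP, M0, M2, M1) and *Ptger4* (M0, CaP, SiO2, M1, M2) overlapped in each case, and those of *Alox5ap* (M2, M0, SiO2, M1, CaP) in each case but for SiO2 and M1.

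Over the 15 libraries, the genes whose log2 CPM was most like that of *Ptgs2* were *Acod1* (Pearson's r = 0.979), *Sod2* (0.979) and *Ccl2* (0.978), as a description across libraries of which the 3 of M1 stand apart. Among the other genes of the group, *Ptges* was the closest to *Ptgs2* (r = 0.935) and *Ptgs1* the farthest (r = -0.814). For *Alox5* the 3 closest genes were *Wsb1* (r = 0.916), *Dmwd* (0.901) and *Cadm1* (0.896), and with at most 49 counts of *Alox5* in a library these values carry counting error.

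A wider list of 54 eicosanoid genes, also chosen with earlier results known, held phospholipases, other synthases, transporters, breakdown enzymes and receptors. Of these, 53 were matched and 27 passed the filter on low counts. *Ltb4r1* passed only through M1 and M2, with at most 0.579 CPM in the other groups, so its calls there are not independent of the filter. In M1, 10 of the 27 were called, 6 higher and 4 lower, where 14.1% of all genes tested were called (9.7% higher, 4.35% lower). For the 27 genes the median log2FC was 0.52, against -0.01 over all genes tested. *Ltb4r1*, the high-affinity receptor of leukotriene B4, had 3.35, 6.77 and 7 CPM in M1 against 0.158, 0.325 and 0.579 CPM in M0 (log2FC 4.38, SE 0.56, adjusted p = 9.26e-05 by edgeR). *Ptger2*, which encodes the PGE2 receptor EP2, had 6.79, 6.22 and 6.32 CPM against 1.08, 1.43 and 1.85 CPM (2.25, SE 0.26, adjusted p = 5.91e-05). The lipoxygenase gene *Alox8* had 3.78 to 6.71 CPM in M1 and 0.911 to 1.34 CPM in M0 (log2FC 2.01, adjusted p = 0.0153), and the secreted phospholipase gene *Pla2g5* 19.7 to 31.5 CPM and 8.06 to 10.5 CPM (1.55, adjusted p = 0.0358). Both calls depended on single libraries, that of *Alox8* on M0 replicate 2 (0.0557 without it) and M1 replicate 3 (0.0699), and that of *Pla2g5* on each of the 3 M0 libraries and on M1 replicates 2 and 3 (0.0750 to 0.132). *Mgst3*, a microsomal glutathione transferase, fell by 1.43 on the log2 scale (SE 0.20, adjusted p = 2.79e-04), from 188 to 240 CPM in M0 to 76.8 to 84.1 CPM in M1.

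In M2, 2 of the 27 genes were called and both were higher, where 4.13% of all genes tested were called (2% higher, 2.13% lower). For the 27 genes the median log2FC was 0.19, against 0.07. *Ltb4r1* had 29.3, 13.7 and 19.6 CPM, above every library of the other groups (log2FC against M0 6.25, SE 0.52, adjusted p = 3.90e-06 by edgeR). Without M0 replicate 1, the log2FC of *Ltb4r1* were 5.61 in M2 and 3.72 in M1. *Pla2g12a*, another secreted phospholipase gene, had 53.2, 68.7 and 55.1 CPM against 19.3, 20.5 and 25.9 CPM in M0 (1.44, SE 0.16, adjusted p = 1.27e-04), a call lost in a fit of the 6 compared libraries (1.43, adjusted p = 0.0550). DESeq2 called 6 of the list in M2, where it called 5.05% of all genes it tested. Without M2 replicate 2, edgeR called 8 of the list and 7.94% of all genes tested. Between M1 and M2, 9 of the 27 were called, 4 higher and 5 lower in M1, where 16.1% of all genes tested were called (10.6% higher, 5.47% lower). For the 27 genes the median log2FC was 0.13, against -0.04. *Ptger2* was higher in M1 (log2FC 2.06, adjusted p = 6.11e-05), and *Mgst3* (-1.74, adjusted p = 3.64e-05) and *Pla2g12a* (-1.41, adjusted p = 2.96e-05) were lower. *Ltb4r1* fell by 1.88 (adjusted p = 0.00214) in M1 relative to M2, and *Cysltr1*, the receptor of cysteinyl leukotrienes, fell by 1.40 (adjusted p = 3.40e-05), with 10.5 to 12.2 CPM in M1 and 25.5 to 33.4 CPM in M2.

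With the rods, 1 of the 27 wider genes was called, with CaP, where 0.654% of all genes tested were called. *Cyp4f18*, which encodes a leukotriene B4 hydroxylase, had 16.6, 14.5 and 12.5 CPM with CaP against 28.1, 34.7 and 36.7 CPM in M0, with no overlap (log2FC -1.19, SE 0.22, adjusted p = 0.0299 by edgeR). With SiO2 it had 25.4, 21.5 and 25.1 CPM, also below every M0 library, without a call. In M1 it was likewise called lower than in M0, with 14.9, 13.3 and 13.1 CPM (log2FC -1.26, SE 0.23, adjusted p = 0.002 by edgeR). The call with CaP did not hold without any 1 of the M0 libraries, CaP replicates 2 and 3 or SiO2 replicates 1 and 3, where the adjusted p reached 0.0513 to 0.182. *Cyp4f18* shares 181 exon bases with *Zfp961* on the opposite strand, which had 859 counts in all against 7632. DESeq2 called 3 of the list with CaP, where it called 2.76% of all genes it tested. At an unadjusted p below 0.05 by edgeR were 6 of the 27 with CaP (15.8% of all genes tested). With SiO2 microrods 0 of the 27 were called by edgeR or DESeq2, which called 0.264% and 0.654% of all genes they tested. At an unadjusted p below 0.05 by edgeR were 4 of the 27 (8.15% of all genes tested). Over the 27, the median log2FC was 0.15 with CaP and 0.14 with SiO2, against 0.06 and -0.02 over all genes. Between the rods 0 were called by edgeR or DESeq2, which called 0.018% and 0.0846% of all genes they tested. At an unadjusted p below 0.05 by edgeR were 3 of the 27 (1.66% of all genes tested).

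**Figure D4:**
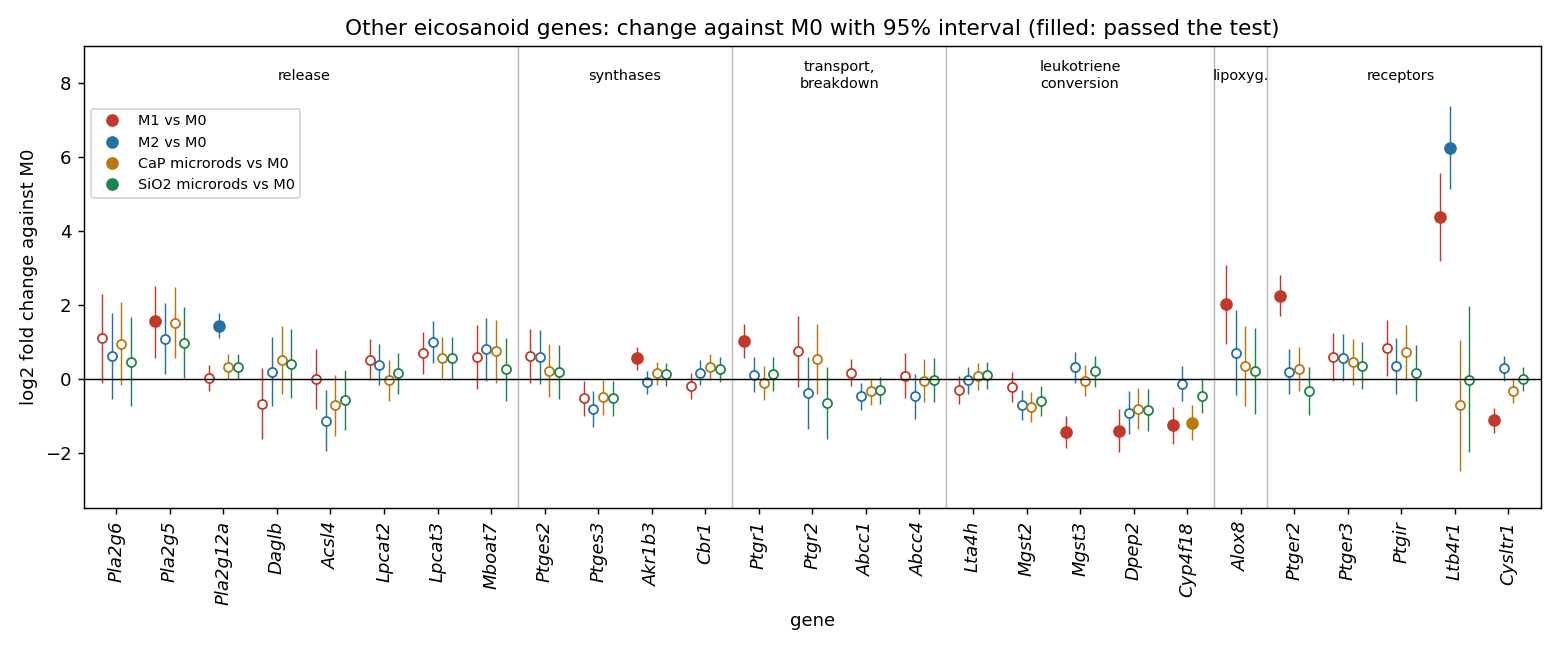
Fitted log2FC against M0 of the 27 tested genes of the wider list, grouped by role, with 95% intervals (lines) and 4 comparisons side by side. Filled points passed the test; *Ltb4r1* stands highest in both polarized groups, at 4.38 in M1 and 6.25 in M2.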

How the data were processed

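Libraries of 15 wells of MH-S cells were prepared by Smart-seq2, a full-length cDNA method with neither molecular identifiers nor strand marking. The authors ran nf-core/rnaseq (STAR, Salmon; Ensembl annotation; GRCm39 per the labels) and deposited whole-number counts per Ensembl identifier, without normalization. As Salmon gives estimates, these may have been rounded. The 15 columns were mapped by name and 0 were left unused.

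Symbols, exon lengths and overlaps came from GENCODE M21 (GRCm38) and 51487 of 78317 identifiers were given a symbol. Tests used edgeR 4.0.16 (R 4.3.3) on all 15 libraries (filterByExpr by group, TMM, quasi-likelihood test, Benjamini-Hochberg adjustment over 16654 genes), with thresholds of 0.05 on the adjusted p and 0.5 on the absolute log2 fold change. DESeq2 1.42.0 was an alternative, as the study used DESeq2 in another version. Standard errors were derived from the fold change and the F statistic, and 95% intervals are not adjusted for the number of genes. CPM are given as mean ± SD over 3 libraries. Likeness used log2 CPM with a prior count of 2. Limits from counts cover counting error only, and an exact permutation test of 3 against 3 libraries cannot give a p below 0.1.

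The genes and lists were chosen with earlier results of these data known, and the motifs and the shares per kb after values were seen. Named genes are the 10 members, up to 5 called genes of the wider list per comparison with the largest absolute change, and the 3 genes most like *Ptgs2* and *Alox5*. The other prostanoid synthases are named for their levels in M0 beside the shares. The name *Ptgr3* was not matched. Alternatives were DESeq2, its size factors, 2 other filters, the legacy quasi-likelihood, a replicate block, subsets of libraries, counts thinned to the smallest library, leaving out each library, and, chosen after seeing the data, the longest transcript as gene length.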

Additional observations from a re-analysis of the deposited data

How the results depend on the processing

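Of the members' log2 fold changes, the called ones kept their direction under every alternative run, and the rods gave 0 called members throughout. With at least 10 counts in every library, which 5 of the 10 members pass, 3, 1 and 3 members were called in M1 against M0, M2 against M0 and M1 against M2, as fewer members were tested. Of all genes tested with that filter, 14.4%, 4.39% and 15.5% were called. A fit of the 6 compared libraries called 1 member, 1 wider gene and 0.629% of all genes tested in M2 (4.13% with all 15 libraries). In such fits *Ptgs1* (adjusted p = 0.103), *Ptger4* (0.102) and *Pla2g12a* (0.0550) in M2, *Tbxas1* in M1 (0.1) and against M2 (0.0653), *Alox5ap* in M1 against M2 (0.156) and *Cyp4f18* with CaP (0.178) were not called. Without 1 library, 3 to 6 members were called in M1 (3 without M1 replicate 3) and 1 to 4 in M2 (1 without M0 replicate 1). Of all genes tested, 8.88% were called in M1 without M1 replicate 3, against 14.1% with all libraries. In M2 without M0 replicate 1 the share was 1.85%, against 4.13%. The wider list in M2 gave 6 calls with DESeq2 and 6 without a filter, and 2 to 8 without 1 library, with 8 without M2 replicate 2 and 4 without CaP replicate 1. Of all genes tested, 5.05% were called with DESeq2 and 2.16% without a filter. Without M2 replicate 2 it was 7.94%, and without CaP replicate 1 it was 5.1%. For CaP against M0 the wider list gave 3 with DESeq2, 2 without a filter, and 0 with the replicate block, with the 6 libraries and with thinned counts. In this order, 2.76%, 1.85%, 0.354%, 0.0414% and 0.328% of all genes tested were called. Without 1 library the wider list gave 0 to 3 there. It gave 3 without CaP replicate 1 (0.926% of all genes tested) and 2 without M2 replicate 2 (1.89%). Between the rods the wider list gave 1 without a filter, where 0.199% of all genes tested were called. Causes were not tested.

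Across the 5 groups, replicate numbers did not pair the libraries, as 14 of 30 same-numbered pairs had a correlation of deviations above 0.1 (from -0.704 to 0.604) and 4 of 15 libraries were closest to their own number. Between M0 and M1 alone, all 3 same-numbered pairs were above 0.1 (0.206, 0.275 and 0.292), and for M1 against M0 the replicate block gave 5 called members and 10 called wider genes, as without it. Of all genes tested, 12.7% were called with the block there and 14.1% without it. With the replicate block, *Alox5ap* (M1 against M2, log2 fold change -0.65, adjusted p = 0.0601) and *Cyp4f18* (CaP, -1.19, 0.0615) were not called, and no other named call was lost.

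Uncalled values changed sign for *Ptgs2* in M2 (-0.11 with the legacy quasi-likelihood, -0.12 with the block, -0.90 with thinned counts), *Tbxas1* (0.04 with CaP and 0.15 with SiO2 with thinned counts, 0.00 for SiO2 with the block), *Alox5* between the rods (0.12 with thinned counts) and *Hpgds* between the rods (0.00 with the block). Without 1 library, ranges across 0 in M2 were -0.77 to 0.35 for *Ptgs2*, -0.91 to 0.05 for *Ptges*, -0.02 to 0.45 for *Alox5ap* and -0.32 to 0.03 for *Pla2g4a*. In CaP they were -0.14 to 0.33 for *Ptgs1*, -0.42 to 0.57 for *Alox5*, -0.48 to 0.40 for *Ltc4s*, -0.42 to 0.17 for *Tbxas1* and -0.66 to 0.16 for *Ptger4*. In SiO2 they were -0.27 to 0.19 for *Ptgs1*, -0.05 to 0.92 for *Alox5*, -0.33 to 0.56 for *Ltc4s*, -0.20 to 0.12 for *Pla2g4a* and -0.23 to 0.35 for *Tbxas1*. In CaP against SiO2 they were -0.01 to 0.38 for *Ptgs1*, -0.10 to 0.60 for *Ptgs2*, -0.43 to 0.09 for *Ltc4s* and -0.13 to 0.10 for *Hpgds*. With the longest transcript as length, the share of *Hpgds* was 46.1% in M1 and 85.1% with SiO2, and that of *Ptgs2* in M1 68.4%.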
